A study of Mus musculus with 12 samples.

Results

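Transcripts of 9 mouse genes of serine synthesis and folate one-carbon metabolism were followed across 4 genotypes of B220+ spleen cells. The genes were Phgdh, Psat1, Psph, Shmt1, Shmt2, Mthfd1, Mthfd1l, Mthfd2 and Slc25a32, found in the count tables by an exact match of the gene symbol. They were chosen by name, with earlier results of these data known. They are 9 of 24421 genes counted, and all 9 were among the 12878 genes that passed the filter on low counts and were tested. Cells carrying the B lineage surface marker B220 came from spleens of mice aged 4 to 5 weeks, with 3 mice and 3 libraries per genotype. The WT group was Max WT without a Myc transgene. The Max KO group came from conditional Max knockout mice without the transgene. The EuMyc group carried the EuMyc transgene, a Myc gene under the enhancer of the immunoglobulin heavy chain locus that is active in the B lineage, and was Max WT. The EuMyc Max KO group carried the transgene and the conditional Max knockout. The Cre driver of the knockout is not given in the sources used here, and the EuMyc cells are described as premalignant. Max encodes the protein with which MYC pairs to bind DNA, so the 4 groups set the effect of the transgene and of Max loss side by side and in combination.

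Serine is made from a glycolytic intermediate in 3 consecutive steps, catalysed by PHGDH, PSAT1 and PSPH. The hydroxymethyltransferases SHMT1, in the cytosol, and SHMT2, in mitochondria, then convert serine to glycine and pass its side-chain carbon to tetrahydrofolate. The folate enzymes of the MTHFD family interconvert the carbon units, which are used to build purines and thymidylate and, through methionine, to supply methyl groups. Proliferating lymphocytes are known for a high demand on this pathway.

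Promoter windows are shown because MYC and MAX are known to bind E-box motifs and all 9 genes rose in EuMyc against WT and fell in EuMyc Max KO against EuMyc, as described further on. RefSeq start sites on GRCm38.p6 were available for 8 of the 9 members, as windows of 300 bases from 250 before to 50 after the start, and Slc25a32 was the gene with no entry. The canonical E-box CACGTG, read on both strands, was in the windows of 0 of 8 members, against 7.15% of 32851 windows and 11.8% of the tested genes with a window. The variant E-box CACGCG, which shares no full match with CACGTG, was in the windows of 3 of 8 members, Psat1, Shmt1 and Shmt2, against 9.27% of all windows and 19.8% of tested genes. The composite ATF4 element TGATGNAA was in 0 of 8, against 3.97% of windows and 2.81% of tested genes. The CCAAT box was in 6 of 8, the exceptions being Shmt2 and Mthfd1l, against 37.4% of windows and 43.1% of tested genes. The windows of the 3 genes with the variant E-box are shown 5′ to 3′ on the coding strand, with the match in capitals (CGCGTG is the same motif on the other strand). A match is a stretch of letters, not a measured binding site, and no binding data were part of these files. The windows lie at chr11:60811216-60811515 (Shmt1), chr10:127522395-127522694 (Shmt2) and chr19:15925010-15925309 (Psat1), each on the minus strand of mm10.
Shmt1: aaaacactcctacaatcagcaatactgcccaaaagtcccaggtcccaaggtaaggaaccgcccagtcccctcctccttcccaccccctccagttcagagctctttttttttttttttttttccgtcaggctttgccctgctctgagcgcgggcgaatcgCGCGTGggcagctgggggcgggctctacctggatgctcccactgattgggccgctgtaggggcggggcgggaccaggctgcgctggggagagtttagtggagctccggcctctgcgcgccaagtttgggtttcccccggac
Shmt2: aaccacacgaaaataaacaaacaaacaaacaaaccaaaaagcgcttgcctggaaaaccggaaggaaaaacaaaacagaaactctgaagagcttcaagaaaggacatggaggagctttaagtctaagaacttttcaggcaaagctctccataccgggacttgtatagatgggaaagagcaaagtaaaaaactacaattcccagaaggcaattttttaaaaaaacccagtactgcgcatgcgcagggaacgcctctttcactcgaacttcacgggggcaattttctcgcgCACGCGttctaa
Psat1: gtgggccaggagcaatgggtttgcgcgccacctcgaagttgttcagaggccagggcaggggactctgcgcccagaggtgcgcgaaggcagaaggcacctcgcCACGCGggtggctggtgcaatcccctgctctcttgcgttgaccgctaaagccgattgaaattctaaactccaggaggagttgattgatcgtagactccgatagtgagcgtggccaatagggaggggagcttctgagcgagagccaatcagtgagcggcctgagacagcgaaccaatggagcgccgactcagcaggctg
Counted from the start site, the match begins at base -91 in Shmt1, at base 38 in Shmt2 and at base -148 in Psat1. Psat1 has a second RefSeq window, with another CACGCG match at base -46. Both Psat1 windows, the Mthfd2 window and the Shmt1 window lie inside the gene as GENCODE vM21 draws it. Their start sites are 22278 and 22715 bases inside for Psat1, 8304 bases for Mthfd2 and 453 bases for Shmt1.

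Libraries held 14973332 to 21671601 reads in genes. Levels are given in CPM (counts of a gene relative to all reads in genes of that library) on library sizes scaled by the trimmed mean of M values, and a difference counts as called where edgeR's quasi-likelihood test, adjusted by Benjamini-Hochberg over all 12878 genes, gave p under 0.05. Max, counted over the whole gene, was 139, 110.3 and 108 CPM in the WT mice and 102, 102 and 99.8 CPM in the Max KO mice. It was 126, 127 and 130.0 CPM in the EuMyc mice and 108, 104 and 102 CPM in the EuMyc Max KO mice. The Max KO libraries all lay below WT without a call (log2 fold change -0.23, SE 0.0784, edgeR adjusted p = 0.0623, though DESeq2 called it with 0.0337), and the gene fell in EuMyc Max KO against EuMyc (-0.29, SE 0.0781, edgeR adjusted p = 0.00462). The fall in Max KO was also called with another scaling, RLE size factors (adjusted p = 0.0477 in edgeR). It was called too without WT replicate 3 or EuMyc Max KO replicate 3 (adjusted p = 0.0429 and 0.0491 in edgeR). A whole-gene count includes reads outside a deleted exon, so it does not check the deletion. Myc, whose counts join the transgene with the endogenous gene, averaged 1010.4 CPM in EuMyc, 522 CPM in EuMyc Max KO, 126 CPM in Max KO and 106 CPM in WT. Summed B cell markers, 9 of 9 detected, ran from 4581 to 12235 CPM over the 12 libraries. In bulk RNA of this kind, fewer cells of a type and less RNA per cell cannot be told apart. The EuMyc Max KO libraries stood apart from each other: replicates 1, 2 and 3 had summed erythroid markers of 5213, 3491 and 917 CPM, against 63.7 to 420 CPM in the 6 libraries without the transgene and 307 to 395 in EuMyc, with Hbb-bt at 0 throughout. Their summed macrophage markers were 5154, 3764 and 2606 CPM and their neutrophil markers 254, 234 and 19.2 CPM. The comparisons of the members and of some other named genes were also fitted with replicate 3 as the only library of this group, and those values are given where a call was lost or a direction turned. The counts over pathway lists were not recomputed that way.

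All 9 genes rose with the transgene while Max was present and fell when Max was lost in its presence. EuMyc against WT gave 9 of 9 members higher, where 36.7% of all tested genes were called higher, with a median log2 fold change of 1.75 over the members and 0.012 over all tested genes. EuMyc Max KO against EuMyc gave 9 of 9 lower, where 36.1% of all tested genes were called lower, with a median of -1.54 over the members and 0.028 over all. These comparisons share the 3 EuMyc libraries, so their values are not independent of each other. The medians over all genes depend on how libraries were scaled, and CPM does not measure RNA per cell. Without the transgene, Max loss gave 1 member higher and 3 lower, where 7.27% and 7.74% of tested genes were called in those directions, with a median of -0.28 against -0.00323 over all genes. EuMyc Max KO against Max KO gave 5 members higher and 0 lower (background 10.7% and 3.69%), and EuMyc Max KO against WT gave 4 higher and 0 lower (background 17% and 10.8%). Called in either direction were 15% of all tested genes in Max KO against WT, 71.6% in EuMyc against WT, 73.7% in EuMyc Max KO against EuMyc, 14.4% in EuMyc Max KO against Max KO and 27.8% in EuMyc Max KO against WT. In those last comparisons the members' medians were 0.22 and 0.17 on the log2 scale, against -0.00155 and -0.0008 over all genes. By library, all 3 EuMyc values lay above all 3 WT values for 9 of 9 members, as for 39.7% of tested genes, and all 3 EuMyc Max KO values lay below EuMyc for 9 of 9, as for 37.9%. The 3 Max KO values lay above WT for 1 member and below for 4 (18% and 20.1% of tested genes). The 3 EuMyc Max KO values lay above Max KO for 6 members and below for 0 (17.2% and 15.1%), and above WT for 6 and below for 0 (22.2% and 19.6%).

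**Figure D1:**
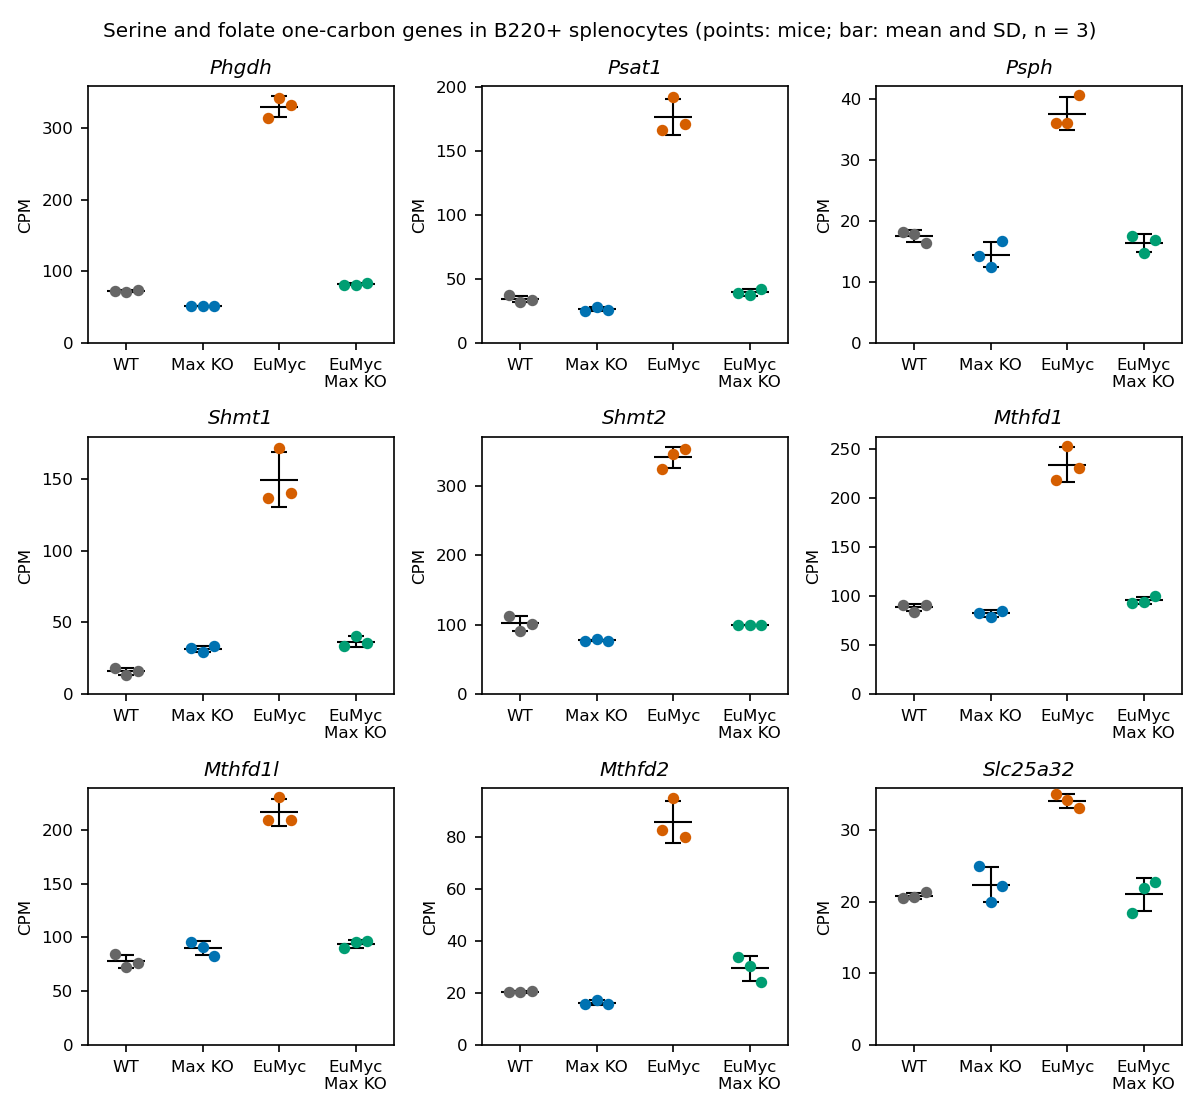
CPM of the 9 genes (vertical axes, each starting at 0) in the 4 genotypes, with 1 point per mouse and bars for the mean and SD of 3 mice. In each panel the 3 EuMyc points lie above all points of the other groups, from 33.1 CPM upward for Slc25a32 and from 315 CPM upward for Phgdh.

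Markers of dividing cells are set beside these genes. The summed CPM of 12 cycling cell markers, all detected, was highest in EuMyc (6407 to 7321), then EuMyc Max KO (1327 to 3312), WT (780 to 816) and Max KO (493 to 540). The group means of Phgdh, Psat1, Mthfd1 and Mthfd2 stood in that order too, while those of Psph, Shmt1, Shmt2, Mthfd1l and Slc25a32 did not. Of the 12 markers, all rose in EuMyc against WT, 11 fell in EuMyc Max KO against EuMyc, and 3 fell in Max KO against WT. Their median log2 fold change was 3.55 in EuMyc against WT, where that of the 9 genes was 1.75. In EuMyc Max KO against EuMyc the medians were -1.66 and -1.54. In EuMyc Max KO 12 rose against either group without the transgene, where 5 of the 9 genes rose against Max KO and 4 against WT. Against WT the median log2 fold change there was 1.77 over the cycling markers and 0.17 over the 9 genes. In Max KO against WT the cycling median was -1.01 and that of the 9 genes -0.28, where 1 of the 9, Shmt1, rose and 3 fell. Pro-B and pre-B markers summed to 719 to 778 CPM in EuMyc against 94.5 to 105 CPM in WT (Max KO 83.0 to 110, EuMyc Max KO 101 to 144). Of the 9 tested, 7 rose and 1 fell in EuMyc against WT, and 1 rose and 5 fell in EuMyc Max KO against EuMyc. Mature B cell markers moved the other way: 9 of 9 fell in EuMyc against WT, and their sum was 4581 to 5447 CPM in EuMyc and 11287 to 12235 CPM in WT. Macrophage and monocyte markers, 10 of 10 detected, summed to 2593 to 3564 CPM in Max KO, above the 1633 to 2055 CPM of WT, and to 797 to 1039 CPM in EuMyc. Of these 10, 2 were called higher in Max KO against WT, and 1 rose and 8 fell in EuMyc against WT. Plasma cell markers, 6 of 6 detected, summed to 425 to 520 CPM in Max KO and 931 to 1632 CPM in WT, with 4 of 6 lower, and to 510 to 679 CPM in EuMyc and 595 to 1079 CPM in EuMyc Max KO. T cell markers, 8 of 8 counted genes tested, all fell in EuMyc against WT and all rose in EuMyc Max KO against EuMyc, with sums of 30.3 to 31.4 CPM in EuMyc, 104 to 126 CPM in WT and 155 to 163 CPM in EuMyc Max KO. Of 7 NK cell markers 5 fell and 7 rose in those comparisons, and of 8 dendritic cell markers 7 fell and 7 rose. The part of cell division, B cell stage or RNA of other cell types in the results on the 9 genes was not tested.

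The 3 serine synthesis genes are described in the order of the pathway steps. Phgdh, the first and committed step (chromosome 3, 98313170 to 98339990 on mm10, minus strand), was at 72.8, 71.0 and 74.6 CPM in WT and 51.2, 51.3 and 51.4 CPM in Max KO. It reached 315, 343 and 333 CPM in EuMyc and 81.4, 80.7 and 83.9 CPM in EuMyc Max KO. The 4 groups did not overlap at any point, with Max KO lowest, then WT, EuMyc Max KO and EuMyc. Phgdh fell in Max KO against WT (log2 fold change -0.50, SE 0.0494, edgeR adjusted p = 7.33e-05) and rose 4.53-fold in EuMyc against WT (2.18, SE 0.0497, edgeR adjusted p = 2.02e-11). It fell 4.03-fold in EuMyc Max KO against EuMyc (-2.01, SE 0.0493, edgeR adjusted p = 5.07e-11) and rose in EuMyc Max KO against Max KO (0.68, SE 0.0492, edgeR adjusted p = 3.58e-05). Against WT the EuMyc Max KO group was higher by 0.17 (SE 0.0486, edgeR adjusted p = 0.0201), a call that was lost in 8 of 20 alternative settings, among them those without WT replicate 1, WT replicate 2, Max KO replicate 3 or EuMyc Max KO replicate 3 (at most 0.0794 for edgeR's adjusted p). With EuMyc Max KO replicate 3 as the only library of its group that difference was 0.18 (edgeR adjusted p = 0.191). The Phgdh transcript has 7 copies elsewhere in the genome that match it at 95% identity or more over at least 1500 bases, none of them in the count tables. A read that fits several places does not enter the gene's count, so the level of Phgdh may be understated by an amount that was not measured here.

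Psat1, the aminotransferase of the second step (chromosome 19, 15904678 to 15947337, minus strand), was at 37.2, 32.0 and 34.0 CPM in WT and at 25.4, 27.9 and 26.2 CPM in Max KO. It was at 167, 193 and 171 CPM in EuMyc and 39.0, 37.3 and 42.6 CPM in EuMyc Max KO. As for Phgdh, the groups stood in the order Max KO, WT, EuMyc Max KO and EuMyc with no overlap between neighbours. Among the 9 genes Psat1 had the largest fall in EuMyc Max KO against EuMyc, 4.46-fold (-2.16, SE 0.0814, edgeR adjusted p = 4.59e-10). It rose 5.14-fold in EuMyc against WT (2.36, SE 0.0823, edgeR adjusted p = 2.86e-10) and by 0.58 in EuMyc Max KO against Max KO (SE 0.0818, edgeR adjusted p = 0.000716). The fall in Max KO against WT (-0.38, SE 0.0822, edgeR adjusted p = 0.0103) was no longer called without WT replicate 1 (-0.32, adjusted p = 0.0520 in edgeR) or Max KO replicate 1 (-0.35, adjusted p = 0.05005 in edgeR). EuMyc Max KO against WT was not called (0.20, SE 0.0808, edgeR adjusted p = 0.0787), although all 3 libraries lay above all 3 WT libraries.

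Psph, the phosphatase of the last step (chromosome 5, 129765558 to 129787449, minus strand), had the smallest response of the 3. WT mice had 18.3, 17.9 and 16.4 CPM, and Max KO mice had 14.2, 12.5 and 16.7 CPM. EuMyc mice had 36.0, 36.1 and 40.7 CPM, and EuMyc Max KO mice had 17.6, 14.8 and 16.9 CPM. The EuMyc libraries stood alone, and the other 3 groups overlapped as neighbours. Psph rose 2.14-fold in EuMyc against WT (1.10, SE 0.111, edgeR adjusted p = 1.27e-06) and fell 2.29-fold in EuMyc Max KO against EuMyc (-1.19, SE 0.111, edgeR adjusted p = 6.57e-07). Max KO against WT was -0.28 (SE 0.114, edgeR adjusted p = 0.122), called only without Max KO replicate 3 (-0.41, adjusted p = 0.0418 in edgeR). In EuMyc Max KO the difference was 0.18 from Max KO (edgeR adjusted p = 0.307) and -0.093 from WT (edgeR adjusted p = 0.574). Exons of Psph share 452 bases with Cct6a on the other strand, a chaperonin subunit gene of 509 CPM in EuMyc and 174 CPM in WT. The strand setting of the counting is not given in the sources used here, so reads from the shared stretch could not be assigned to either gene.

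The paired hydroxymethyltransferases behaved differently when Max was lost without the transgene. Shmt1, the cytosolic enzyme (chromosome 11, 60788104 to 60811718, minus strand), was at 18.5, 13.5 and 15.9 CPM in WT and 32.2, 29.3 and 33.2 CPM in Max KO. It was at 137, 171 and 140.2 CPM in EuMyc and 33.3, 40.8 and 35.5 CPM in EuMyc Max KO. WT was lowest, Max KO and EuMyc Max KO stood next to each other without overlap, and EuMyc was highest. Shmt1 was the only member called higher in Max KO against WT (0.99, SE 0.125, edgeR adjusted p = 0.000470), and that call held in all 19 alternative settings tried. Its rise in EuMyc against WT was the largest of the 9 genes, 9.38-fold (3.23, SE 0.129, edgeR adjusted p = 6.12e-10). It fell 4.10-fold in EuMyc Max KO against EuMyc (-2.03, SE 0.121, edgeR adjusted p = 1.25e-08) and was higher in EuMyc Max KO than in WT (1.19, SE 0.125, edgeR adjusted p = 0.000121), also with replicate 3 as the only EuMyc Max KO library. EuMyc Max KO against Max KO was not called (0.21, SE 0.120, edgeR adjusted p = 0.263). Exons of Shmt1 share 184 bases with Smcr8 on the other strand, which ran against Shmt1 between those groups, at 160.2 CPM in WT and 99.6 in EuMyc.

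Shmt2, the mitochondrial enzyme (chromosome 10, 127517123 to 127522444, minus strand), was at 113, 91.7 and 101 CPM in WT and 77.1, 78.7 and 77.1 CPM in Max KO. It was at 324, 347 and 354 CPM in EuMyc and 100.1, 99.5 and 99.0 CPM in EuMyc Max KO. Max KO was lowest, and the EuMyc Max KO libraries lay within the range of WT. Shmt2 fell in Max KO against WT (-0.39, SE 0.0680, edgeR adjusted p = 0.00332), rose 3.35-fold in EuMyc against WT (1.75, SE 0.0684, edgeR adjusted p = 5.06e-10) and fell 3.43-fold in EuMyc Max KO against EuMyc (-1.78, SE 0.0684, edgeR adjusted p = 4.95e-10). EuMyc Max KO was higher than Max KO (0.36, SE 0.0679, edgeR adjusted p = 0.00413), though not with replicate 3 as its only library (0.35, adjusted p = 0.0707 in edgeR). Against WT it differed by -0.033 (SE 0.0675, edgeR adjusted p = 0.752). Exons of Shmt2 share 32 bases with Ndufa4l2 on the other strand.

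The folate enzymes come in a cytosolic and a mitochondrial branch. Mthfd1, the trifunctional cytosolic enzyme, lies on chromosome 12 at 76255298 to 76319803, plus strand, 617 kb from Max. WT mice had 90.3, 84.0 and 90.8 CPM, and Max KO mice had 83.0, 78.6 and 84.9 CPM. EuMyc mice had 218, 253 and 231 CPM, and EuMyc Max KO mice had 93.1, 94.0 and 99.7 CPM. WT and Max KO overlapped, the EuMyc Max KO libraries lay just above both, and EuMyc stood far above. Mthfd1 rose 2.65-fold in EuMyc against WT (1.40, SE 0.0641, edgeR adjusted p = 1.33e-09) and fell 2.45-fold in EuMyc Max KO against EuMyc (-1.29, SE 0.0638, edgeR adjusted p = 2.78e-09). Max KO against WT was -0.10 (SE 0.0640, edgeR adjusted p = 0.297). EuMyc Max KO was higher than Max KO by 0.22 (SE 0.0638, edgeR adjusted p = 0.0382), a call lost in 12 of 20 settings. Those included leaving out WT replicate 3 or any of the 6 libraries compared (0.19 to 0.24, edgeR adjusted p up to 0.119), and with EuMyc Max KO replicate 3 alone it was 0.27 (edgeR adjusted p = 0.136). Against WT the difference was 0.11 (edgeR adjusted p = 0.204).

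Mthfd1l, the mitochondrial enzyme that releases formate (chromosome 10, 3973118 to 4167081, plus strand), was at 84.6, 72.4 and 76.2 CPM in WT and 95.5, 91.5 and 82.9 CPM in Max KO. It was at 209, 231 and 209 CPM in EuMyc and 90.0, 95.7 and 96.6 CPM in EuMyc Max KO. Max KO overlapped both WT and EuMyc Max KO. The gene rose 2.78-fold in EuMyc against WT (1.48, SE 0.0734, edgeR adjusted p = 2.25e-09) and fell 2.30-fold in EuMyc Max KO against EuMyc (-1.20, SE 0.0726, edgeR adjusted p = 1.33e-08). Max KO against WT was 0.21 (SE 0.0730, edgeR adjusted p = 0.0702), called only with libraries scaled by their totals (0.25, adjusted p = 0.0323 in edgeR). EuMyc Max KO was higher than WT by 0.28 (SE 0.0728, edgeR adjusted p = 0.0142), a call lost without WT replicate 2 or 3 (0.22 and 0.26, edgeR adjusted p up to 0.0675) and with EuMyc Max KO replicate 3 alone (0.29, edgeR adjusted p = 0.117).

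Mthfd2, the mitochondrial dehydrogenase and cyclohydrolase upstream of Mthfd1l (chromosome 6, 83305691 to 83325908, minus strand), was at 20.2, 20.3 and 20.9 CPM in WT and 15.7, 17.3 and 15.7 CPM in Max KO. It was at 82.5, 94.7 and 79.8 CPM in EuMyc and 33.8, 30.2 and 24.2 CPM in EuMyc Max KO. No neighbouring groups overlapped, in the order Max KO, WT, EuMyc Max KO and EuMyc. Mthfd2 rose 4.18-fold in EuMyc against WT (2.06, SE 0.112, edgeR adjusted p = 4.56e-09) and fell 2.91-fold in EuMyc Max KO against EuMyc (-1.54, SE 0.110, edgeR adjusted p = 5.30e-08). It rose in EuMyc Max KO against Max KO (0.86, SE 0.113, edgeR adjusted p = 0.000579), also with replicate 3 as the only library (0.57). The rise in EuMyc Max KO against WT (0.52, SE 0.111, edgeR adjusted p = 0.00483) moved with the libraries that stood apart. The replicates at 33.8 and 30.2 CPM had erythroid sums of 5213 and 3491 CPM, cycling sums of 3312 and 2497 CPM and macrophage sums of 5154 and 3764 CPM, while the replicate at 24.2 CPM had 917, 1327 and 2606 CPM. With that replicate alone the difference from WT was 0.22 (edgeR adjusted p = 0.320). The part of those cells in the result was not tested. Max KO against WT was -0.34 (SE 0.114, edgeR adjusted p = 0.0647), called without EuMyc Max KO replicate 1 or 3 (adjusted p = 0.0325 and 0.0166 in edgeR), with only the 2 groups in the fit (-0.32, adjusted p = 0.0399 in edgeR) and by DESeq2 (-0.36, adjusted p = 0.0468).

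Slc25a32, the carrier that brings folate into mitochondria (chromosome 15, 39091231 to 39112716, minus strand), had the smallest response. WT mice had 20.5, 20.6 and 21.3 CPM, and Max KO mice had 24.9, 20.01 and 22.2 CPM. EuMyc mice had 35.0, 34.2 and 33.1 CPM, and EuMyc Max KO mice had 18.4, 21.9 and 22.7 CPM. EuMyc stood alone, and the other groups overlapped as neighbours. The carrier rose 1.64-fold in EuMyc against WT (0.71, SE 0.0977, edgeR adjusted p = 2.27e-05) and fell 1.62-fold in EuMyc Max KO against EuMyc (-0.70, SE 0.0974, edgeR adjusted p = 2.67e-05). It was not called in Max KO against WT (0.10, edgeR adjusted p = 0.516), in EuMyc Max KO against Max KO (-0.092, edgeR adjusted p = 0.567, and 0.017 with replicate 3 alone) or in EuMyc Max KO against WT (0.013, edgeR adjusted p = 0.938).

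**Figure D2:**
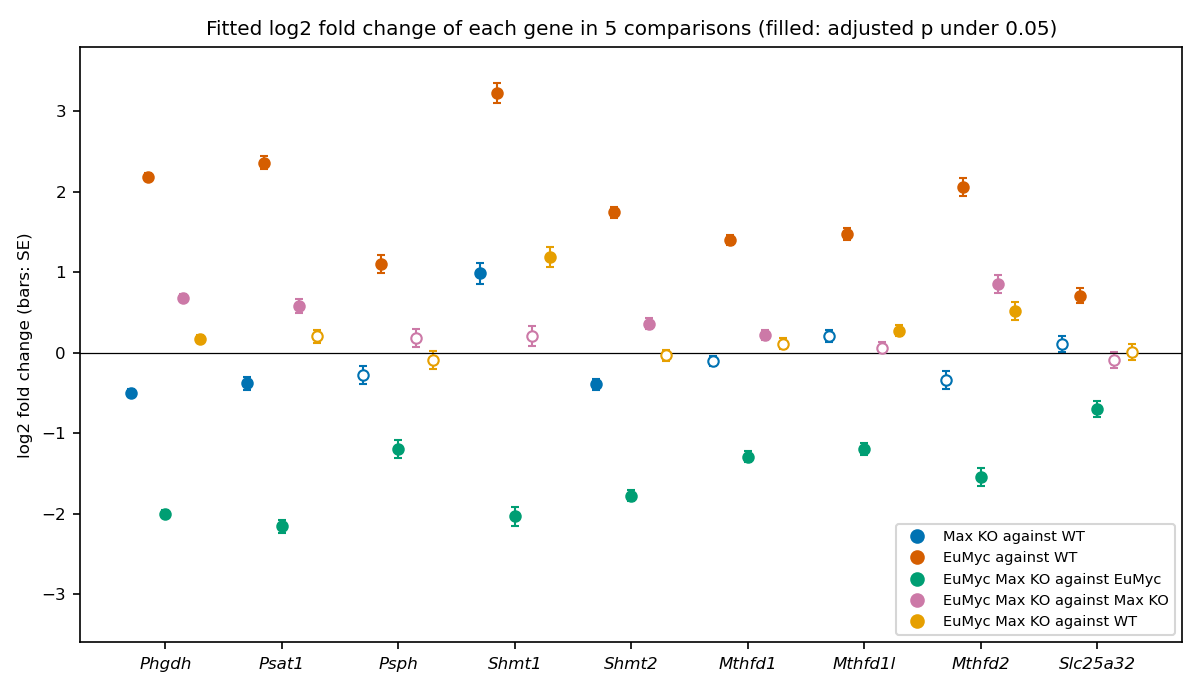
Fitted log2 fold change (vertical axis, bars for the SE) of the 9 genes in 5 comparisons, with filled points for an adjusted p under 0.05 and open points otherwise. Filled points above 0 for all genes in EuMyc against WT run from 0.71 to 3.23, those below 0 in EuMyc Max KO against EuMyc from -0.70 to -2.16, and the other comparisons lie between -0.50 and 1.19.

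Whether Max loss acted differently with and without the transgene was tested directly, as the log2 change from EuMyc to EuMyc Max KO minus the log2 change from WT to Max KO. All 9 genes gave a negative difference that was called, where 27.9% of all tested genes were called lower, 27.8% higher and 55.7% in either direction, with a median of -1.39 against 0.024 over all genes. Shmt1 had the largest difference, -3.02 (SE 0.174, edgeR adjusted p = 8.85e-08), being the gene that rose in 1 background and fell in the other. Slc25a32 had the smallest, -0.80 (SE 0.139, edgeR adjusted p = 0.000317), and Psph came next to it with -0.92 (SE 0.159, edgeR adjusted p = 0.000319). All 9 differences were also called with replicate 3 as the only EuMyc Max KO library.

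How near the EuMyc Max KO level came to WT can be read from the mean CPM, as the share of the gain from WT to EuMyc that was present in EuMyc Max KO. The share was 15.4% for Shmt1, from 13.8% to 16.8% with 1 library left out, and 11.8% for Mthfd1l, from 10.1% to 13.9%. It was 4.99% for Mthfd1, 3.65% for Psat1 and 3.56% for Phgdh. For Mthfd2 it was 13.7%, from 10.3% without EuMyc Max KO replicate 1 to 17.7% without replicate 3, and 5.68% with replicate 3 as the only library of that group. For Slc25a32 it was 1.43%, from -5.06% without EuMyc Max KO replicate 3 to 11.2% without replicate 1, and 14.4% with replicate 3 alone, so its place among the 9 was not fixed by these libraries. With replicate 3 alone the shares of Psat1 and Mthfd1 were 5.73% and 7.81%. The EuMyc Max KO mean lay below the WT mean for Psph (-5.46%, from -8.43% without WT replicate 3 to -1.37% without EuMyc Max KO replicate 2). It did so too for Shmt2 (-0.96%), where leaving out WT replicate 1 gave 1.30% and leaving out WT replicate 2 gave -3.15%. Leaving out 1 library in turn was chosen for these shares after seeing the data. All of these shares use the same 3 WT libraries and carry no test.

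The balance between a mitochondrial enzyme and its cytosolic counterpart was taken within each library, as the log2 ratio of counts, which needs no scaling between libraries. For Shmt2 to Shmt1 the WT libraries had 2.61, 2.77 and 2.67 and the Max KO libraries 1.26, 1.43 and 1.22. The EuMyc libraries had 1.24, 1.02 and 1.33 and the EuMyc Max KO libraries 1.59, 1.29 and 1.48. WT stood alone, and the ratio was lower by 1.38 in Max KO and by 1.48 in EuMyc on the log2 scale, through a rise of Shmt1 with a fall of Shmt2 in the first case and a larger rise of Shmt1 than of Shmt2 in the second. Per base of transcript, Shmt2 messages were 8.02 ± 0.439 times (SD, n = 3) those of Shmt1 in WT cells. That factor was 3.08 ± 0.243 for Max KO, 2.88 ± 0.317 for EuMyc and 3.43 ± 0.358 for EuMyc Max KO. Mthfd2 to Mthfd1 had a mean log2 ratio of -2.11 ± 0.0587 (SD) for WT, -2.34 ± 0.136 for Max KO, -1.45 ± 0.0712 for EuMyc and -1.71 ± 0.299 for EuMyc Max KO. It was higher in all EuMyc than in all WT libraries, by 0.66, and its spread in EuMyc Max KO ran from -1.46 in replicate 1 to -2.04 in replicate 3. Mthfd1l to Mthfd1 had means of -0.19 ± 0.0836 for WT, 0.13 ± 0.142 for Max KO, -0.11 ± 0.0448 for EuMyc and -0.023 ± 0.0417 for EuMyc Max KO. The mean was higher by 0.32 in Max KO than in WT, with no overlap of the libraries, while that of Mthfd2 to Mthfd1 differed by -0.23. With 3 mice against 3, the exact two-sided permutation test cannot go below p = 0.1, which was reached in 10 of the 15 ratio comparisons (Benjamini-Hochberg adjusted p = 0.15), so none passed 0.05.

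**Figure D3:**
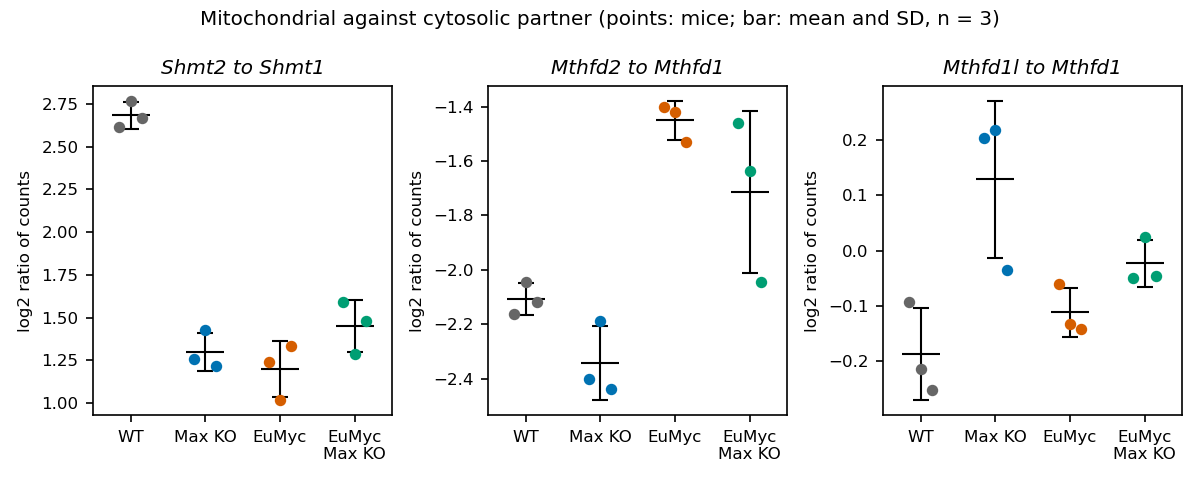
Log2 ratio of counts of each mitochondrial gene to its cytosolic partner (vertical axes, not starting at 0), with 1 point per library and bars for the mean and SD of 3 mice. The WT points for Shmt2 to Shmt1 lie between 2.61 and 2.77, above every point of the other groups.

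Compared per kilobase of exon and per library size (RPKM, with the exon length of GENCODE vM21), the members differed in level within WT cells. Shmt2 was at 32.8 ± 3.41 RPKM (SD, n = 3) and Phgdh at 29.3 ± 0.723, followed by Mthfd1 at 19.9 ± 0.849 and Mthfd1l at 17.5 ± 1.41. Psat1 was at 8.09 ± 0.623, Mthfd2 at 5.87 ± 0.110, Shmt1 at 4.11 ± 0.642, Psph at 4.05 ± 0.225 and Slc25a32 at 3.42 ± 0.0754 RPKM. The ranges of Shmt2 and Phgdh overlapped, as did those of Mthfd1 and Mthfd1l, and Shmt1 overlapped both Psph and Slc25a32. In EuMyc cells Phgdh was highest, at 133 ± 5.71 RPKM, then Shmt2 at 109.9 ± 4.97. Shmt1 moved up to 38.5 ± 4.90 RPKM, near Psat1 at 41.6 ± 3.27 and Mthfd1l at 48.8 ± 2.84, while Slc25a32 stayed lowest at 5.60 ± 0.156. The length of exons is that of all annotated transcripts together, so a gene with unused exons is understated on this scale.

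The other 57 genes listed for serine, folate and methionine metabolism gave a mixed picture, with 48 of them tested. In EuMyc against WT 26 rose and 11 fell (median 0.52), in EuMyc Max KO against EuMyc 14 rose and 24 fell (median -0.18), and in Max KO against WT 4 rose and 2 fell (median -0.00324). EuMyc Max KO gave 11 higher and 0 lower against Max KO, and 11 higher and 1 lower against WT. Over all tested genes, 36.7% were called higher and 34.9% lower in EuMyc against WT, and 37.6% and 36.1% in EuMyc Max KO against EuMyc. The shares were 7.27% higher and 7.74% lower in Max KO against WT. For EuMyc Max KO they were 10.7% and 3.69% against Max KO, and 17% and 10.8% against WT. Slc46a1, the proton-coupled folate transporter, was 1 of the 4 that rose in Max KO (1.38, SE 0.281, edgeR adjusted p = 0.00792), at 2.095 CPM in WT and 5.45 CPM in Max KO, and is named after its values were seen.

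**Figure D4:**
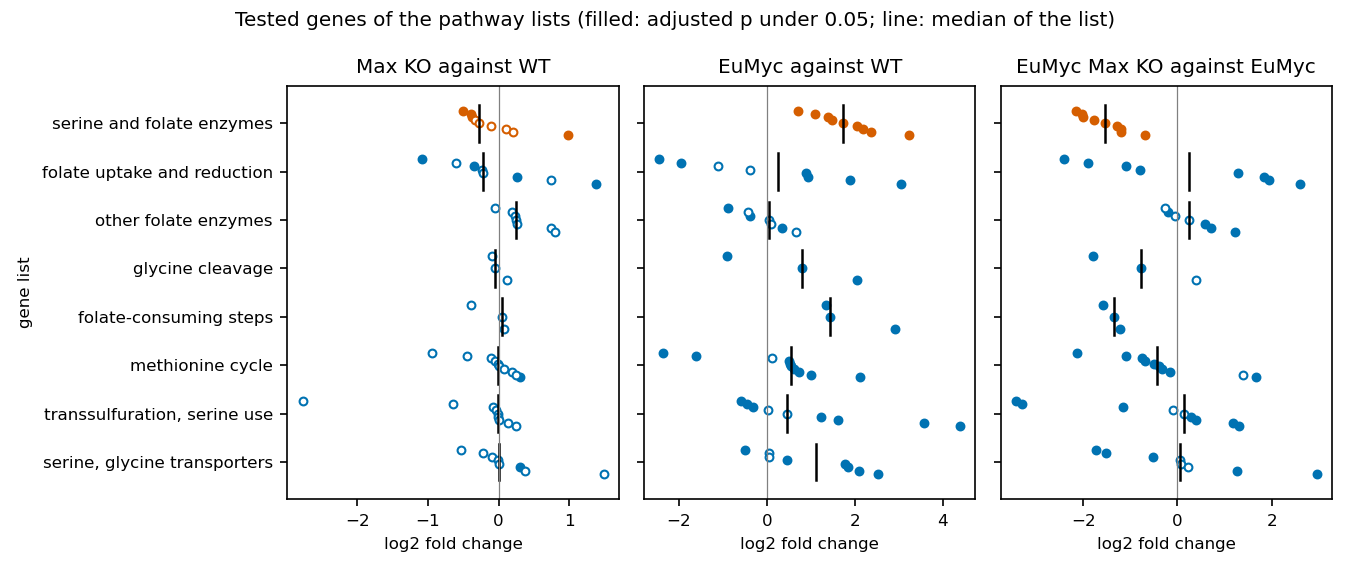
Log2 fold change (horizontal axes) of each tested gene of the pathway lists in 3 comparisons, with filled points for an adjusted p under 0.05 and a vertical bar for the median of each list. The 9 serine and folate enzymes, in the top row, are all to the right of 0 in EuMyc against WT (median 1.75) and all to the left in EuMyc Max KO against EuMyc (median -1.54), while the transsulfuration and transporter rows spread to both sides.

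Of the folate-consuming steps of nucleotide synthesis, 3 of 3 genes were higher in EuMyc than in WT, where 36.7% of tested genes were, and 3 of 3 were lower in EuMyc Max KO than in EuMyc, where 36.1% were. Tyms, thymidylate synthase, averaged 84.2 ± 10.1 CPM (SD, n = 3) in EuMyc and 28.2 ± 8.87 CPM in EuMyc Max KO, against 11.05 ± 1.89 CPM in WT and 8.44 ± 1.17 CPM in Max KO. It rose in EuMyc against WT (2.93, SE 0.224) and was still higher in EuMyc Max KO than in WT (1.35, SE 0.220, edgeR adjusted p = 0.00195). With replicate 3 as the only EuMyc Max KO library Tyms differed by 0.76 from WT (edgeR adjusted p = 0.020003) and by -2.15 from EuMyc, against -1.58 with all 3. Gart and Atic, the formyltransferase enzymes of purine synthesis, went from 122 ± 6.66 to 312 ± 25.7 CPM and from 123 ± 11.2 to 332 ± 17.0 CPM between WT and EuMyc, and both fell in EuMyc Max KO against EuMyc (-1.21, SE 0.0722, and -1.35, SE 0.0750). Neither was called in EuMyc Max KO against WT (edgeR adjusted p = 0.164 and 0.407).

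Genes of folate uptake and turnover were split. The reduced folate carrier Slc19a1 rose in EuMyc (1.89, SE 0.0808), fell in EuMyc Max KO against EuMyc (-1.89, SE 0.0807) and fell in Max KO against WT (-0.35, SE 0.0823, edgeR adjusted p = 0.0155). That last call was lost without WT replicate 1 (adjusted p = 0.0505 in edgeR) or Max KO replicate 1 (adjusted p = 0.0612 in edgeR). Ggh, the lysosomal hydrolase that removes folate's glutamate tail, fell in EuMyc against WT (-1.95, SE 0.386) from 9.27 ± 3.92 to 2.39 ± 0.444 CPM and rose again in EuMyc Max KO against EuMyc (1.28, SE 0.388). Qdpr, a pteridine reductase, rose in EuMyc (0.94, SE 0.0787), and its rise in Max KO (0.26, edgeR adjusted p = 0.0451) was lost in most alternatives that left out a library (edgeR adjusted p up to 0.164).

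Some relatives of the members in the mitochondrial branch were at low levels. Mthfd2l, a paralogue of Mthfd2, averaged 1.25 ± 0.175 CPM in WT and 1.997 ± 0.656 in EuMyc, and Aldh1l2, which burns mitochondrial formyl-tetrahydrofolate, averaged 0.35 ± 0.164 CPM in WT and 0.361 ± 0.103 in EuMyc. Neither was called in any comparison. Gldc, the decarboxylase of glycine cleavage, had too few counts to be tested. Sfxn1, the mitochondrial serine carrier, averaged 258 ± 6.65 CPM in EuMyc, 77.2 ± 2.48 CPM in EuMyc Max KO, 71.1 ± 4.85 CPM in WT and 61.1 ± 5.82 CPM in Max KO. It rose in EuMyc against WT (1.86, SE 0.0725), fell in EuMyc Max KO against EuMyc (-1.74, SE 0.0721) and rose in EuMyc Max KO against Max KO (0.34, SE 0.0720, edgeR adjusted p = 0.00826), a call lost with replicate 3 as the only EuMyc Max KO library (0.35, edgeR adjusted p = 0.0772).

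In the methionine cycle, 7 of 10 tested genes rose and 2 fell in EuMyc against WT, and 1 rose and 8 fell in EuMyc Max KO against EuMyc. Over all tested genes, 36.7% were called higher and 34.9% lower in the first comparison, and 37.6% higher and 36.1% lower in the second. Ahcy, which clears S-adenosylhomocysteine, rose from 23.0 ± 5.56 to 99.2 ± 12.9 CPM in EuMyc and fell to 22.6 ± 3.16 CPM in EuMyc Max KO. Mat2a, which makes S-adenosylmethionine, rose from 243 ± 4.01 to 489 ± 26.6 CPM and fell to 230.2 ± 19.2 CPM. The Ahcy relative Ahcyl2 went the other way, falling by 1.60 in EuMyc and rising by 1.68 in EuMyc Max KO against EuMyc on the log2 scale (SE 0.0970 each). Mtr, methionine synthase, rose in Max KO against WT (0.30, SE 0.0640, edgeR adjusted p = 0.00923) and in EuMyc (0.53, SE 0.0638).

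Among genes of serine use and transport, several of the largest values belonged to EuMyc Max KO libraries that differed among themselves. Slc6a9, the glycine transporter GLYT1, averaged 53.3 ± 34.1 CPM in EuMyc Max KO, 6.82 ± 1.49 CPM in EuMyc, 1.54 ± 0.662 CPM in Max KO and 1.17 ± 0.785 CPM in WT, a rise of 2.96 against EuMyc (SE 0.559) that was 1.30 with replicate 3 alone (edgeR adjusted p = 0.0215). Gclm, a subunit of the enzyme that starts glutathione synthesis, averaged 33.7 ± 2.57 CPM in EuMyc and 83.3 ± 47.7 in EuMyc Max KO. Its rise there (1.31, SE 0.387, edgeR adjusted p = 0.0119) was lost without EuMyc Max KO replicate 1 (0.86, adjusted p = 0.0510 in edgeR) and was -0.047 with replicate 3 alone (edgeR adjusted p = 0.834). Replicates 1 and 2 are the ones with the high erythroid sums, 5213 and 3491 against 917 CPM, and their part in these results was not tested. Slc1a5, a neutral amino acid transporter, was higher in EuMyc Max KO (241 ± 36.3 CPM) than in WT (53.8 ± 2.25), at 2.16 (SE 0.599, edgeR adjusted p = 0.0276). That call was lost on leaving out any of the 6 libraries compared (edgeR adjusted p up to 0.0784) and with replicate 3 alone (2.36, edgeR adjusted p = 0.198), and its SD in EuMyc was as large as its mean (229 ± 230 CPM). Slc38a1, a glutamine and serine transporter, rose in Max KO against WT (0.31, SE 0.0743, edgeR adjusted p = 0.0170), a call that needed WT replicate 1, Max KO replicate 1 and Max KO replicate 3 (without any of them edgeR's adjusted p rose to at most 0.0783). Sptlc2, which uses serine for sphingolipids, fell in EuMyc (-0.58, SE 0.0628) and was the 1 gene called lower in EuMyc Max KO against WT (-0.19, SE 0.0624, edgeR adjusted p = 0.0393). The call was lost without any of the 3 WT libraries, EuMyc Max KO replicate 1 or 2, or Max KO replicate 1 (edgeR adjusted p up to 0.170). It was lost too with library totals, without the filter, with the replicate block and with only the 2 groups in the fit (edgeR adjusted p from 0.0550 to 0.0855), and with replicate 3 as the only EuMyc Max KO library (-0.095, edgeR adjusted p = 0.610).

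Among the regulators, the transcript of Atf4, which encodes a stress factor that acts on serine synthesis genes in many cells, stayed within a narrow range. Its protein was not measured. It averaged 219 ± 4.30 CPM in EuMyc, 196 ± 14.6 CPM in EuMyc Max KO, 184 ± 7.03 CPM in WT and 167 ± 14.9 CPM in Max KO. Its rise in EuMyc against WT (0.25, SE 0.0708, edgeR adjusted p = 0.00641) was not called with upper-quartile factors (0.12) or library totals (0.15). Its fall in EuMyc Max KO against EuMyc was not called with all libraries. That fall was called without Max KO replicate 2, Max KO replicate 3 or EuMyc Max KO replicate 1 (adjusted p = 0.0373, 0.0427 and 0.0155 in edgeR). With EuMyc Max KO replicate 3 alone it was -0.28.

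Within a group the members did not shift as a block in every library. In WT, 7 of 9 members lay above their group mean in replicate 1 and 8 of 9 below it in replicate 2, with median deviations of 0.061 and -0.072 on the log2 scale. In EuMyc, 8 of 9 lay above the mean in replicate 2 (median 0.095) and 8 of 9 below it in replicate 1 (median -0.068). In Max KO the medians were between -0.00640 and 0.00005 with members on both sides. In EuMyc Max KO they were between -0.022 and 0.039, although single genes deviated by -0.27 (the lowest, in replicate 3) to 0.22 (the highest, in replicate 1). These shifts are small beside the differences between EuMyc and the other groups.

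The genes whose pattern was most like each member were found among 9706 candidates of at least 5 CPM, by the root mean square difference of log2 CPM over the 12 libraries after centring each gene on its own mean. For Phgdh they were Srm (0.104), Thop1 (0.119) and Nasp (0.131), and its nearest member was Psat1 (0.0964). Psat1 was nearest to Thop1 (0.0788), Srm (0.137) and Nmral1 (0.142). Srm encodes spermidine synthase. Shmt2 was nearest to Mrpl12 (0.0457), Ptma (0.0645) and Cdk4 (0.0746), a mitochondrial ribosomal protein, prothymosin alpha and a G1 kinase. Mthfd1 was nearest to Pgam1 (0.0400), Thoc3 (0.0434) and Supt16 (0.0476), and Mthfd1l to Gart (0.0775), Hadh (0.0812) and Ampd2 (0.0916). Mthfd2 was nearest to Mad2l1 (0.0723), Prim1 (0.0753) and Whsc1 (0.0925), the first a mitotic checkpoint gene and the second a primase subunit. Psph was nearest to Nif3l1 (0.0913), Mrpl49 (0.0923) and Srsf3 (0.105), and Slc25a32 to Tnpo1 (0.0664), Polr1a (0.0669) and Lig3 (0.0762). Shmt1 had the least close company beyond its first neighbour, with Mex3a at 0.111, Akap1 at 0.212 and Fgf13 at 0.295, and its nearest member, Psat1, at 0.517. Likeness over these libraries rests on the same 4 groups for every gene and is a description of the pattern.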

How the data were processed

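RNA from B220+ spleen cells of 12 mice was sequenced, with 1 library per mouse. The tools named in the submitters' processing notes are bcl2fastq 1.8.4, TopHat2 2.1.0 and HTSeq 0.6.1, and the build is mm10. What the authors deposited are raw counts of reads for each gene symbol, with no normalization. The annotation and strand setting were not used here, since no source names them. The 5 summary rows of each table were left out, and reads that mapped to several places, 20.3% to 27.9% of a table, were among them.

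Groups came from the genotype labels. Libraries were scaled by TMM and filtered by filterByExpr, and 1 quasi-likelihood model was fitted to all 12 libraries (R 4.3.3, edgeR 4.0.16, 8 residual degrees of freedom), with Benjamini-Hochberg adjustment over 12878 genes. The scripts were tested on simulated data. Ratios had an exact permutation test with 0.5 added to counts as an alternative. Alternatives were other scalings, no filter, DESeq2 1.42.0, only the 2 groups compared, a replicate block and leaving out each library. The members and gene lists were chosen with earlier results of these data known. Besides the members, the text names called pathway genes of 5 CPM or more with the most extreme log2 fold changes (at most 3 per direction and comparison) and a fixed set of neighbours, of which a gene is not reported here. Coordinates and exon lengths are from GENCODE vM21, start sites from RefSeq on GRCm38.p6. No protein sequences were used here.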

Additional observations from a re-analysis of the deposited data

Results flagged for a closer look

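The effect of Max loss differed between cells with and without the Myc transgene for all 9 genes, by the test of that difference in the edgeR quasi-likelihood fit. On the log2 scale, the change with the transgene minus the change without it was -1.50 for Phgdh, -1.78 for Psat1 and -0.92 for Psph. It was -3.02 for Shmt1 and -1.39 for Shmt2, and -1.19 for Mthfd1, -1.41 for Mthfd1l and -1.20 for Mthfd2. For Slc25a32 it was -0.80. Of all tested genes, 55.7% were called in this test.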

How the results depend on the processing

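All 9 members were called in the same direction for the transgene with Max present, for Max loss with the transgene and in the test of the difference, under every alternative run. Over all 6 contrasts, 1013 of 1053 alternative values for members kept direction and call, 27 lost a call, 6 gained one and 7 turned. Upper-quartile factors and library totals moved the median of all genes by -0.13 and -0.10 in EuMyc against WT, and library totals moved it by 0.12 in EuMyc Max KO against EuMyc. Library totals changed the split of all calls in Max KO against WT from 936 higher and 997 lower to 1130 and 719, and upper-quartile factors that in EuMyc Max KO against Max KO from 1378 and 475 to 1215 and 695. With 1 library left out, calls over all genes ranged from 808 to 2563 in Max KO against WT (1933 with all), from 1057 to 2846 in EuMyc Max KO against Max KO (1853) and from 2379 to 4236 in EuMyc Max KO against WT (3581), and members called in the last from 2 to 4. The lowest of these came without WT replicate 1, EuMyc Max KO replicate 2, EuMyc Max KO replicate 1 and WT replicate 2, and the 2846 without EuMyc Max KO replicate 3. With only the groups compared in the fit, EuMyc Max KO against Max KO gave 851. With EuMyc Max KO replicate 3 as the only library of its group, chosen after seeing the data and assumed to vary like the other groups, the counts over all genes were 569 against Max KO and 932 against WT, with 3 and 1 members. In that setting Slc25a32 against Max KO turned to 0.017 and Gclm against EuMyc to -0.047. Other values that turned were all uncalled: Gart in Max KO against WT (-0.0096 without Max KO replicate 1, up to 0.088 over such settings), Mthfd1l in EuMyc Max KO against Max KO (-0.0035 without Max KO replicate 3, up to 0.11), and in EuMyc Max KO against WT Shmt2 (0.046 without WT replicate 1, down to -0.11) and Slc25a32 (-0.024 with upper-quartile factors, and -0.049 to 0.10 with 1 library left out; below 0 without Max KO replicate 3 or EuMyc Max KO replicate 2 or 3). Fewer libraries are part of these leave-out settings, and otherwise the cause was not tested.

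Whether replicate numbers pair the mice could not be told from these libraries. Deviations of same-numbered libraries correlated over 0.1 in 4 of 18 pairs (median 0.011, highest 0.31), against 4 of 36 with other numbers (median -0.021, highest 0.16). With the replicate block all 9 members were called in the same 3 tests, and 4 in each of the others (5 without it in EuMyc Max KO against Max KO). Over all genes it gave 1738 calls in Max KO against WT, 9181 in EuMyc against WT and 9440 for Max loss with the transgene. The number of mice limits small differences: at 3 against 3, no single-gene permutation test can go below 0.1.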
